A study of Mus musculus with 12 samples.

Results

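The genes described here are 9 chemokine ligands of the CXC and CX3C families, Cxcl1, Cxcl2, Cxcl3, Cxcl9, Cxcl10, Cxcl14, Cxcl16, Cx3cl1 and Pf4, chosen by name from the 38887 genes of the per-library tables. They were measured by RNA-Seq in bone marrow-derived macrophages (BMMs), which are macrophages grown from bone marrow cells in culture with the growth factor M-CSF. The 12 libraries form 4 groups of 3 mice each: WT M0 and KO M0, left untreated, and WT M2 and KO M2, treated with IL-4 at 20 ng/ml for 8 h. The KO mice carried loxP sites around exons 4 and 5 of Igf2bp2, which encodes the RNA-binding protein IGF2BP2, together with a Cre recombinase driven by the myeloid gene Lyz2. The WT mice were littermates without floxed alleles, of which some carried Cre and some did not, and all mice were 3 to 4 months old and matched for age and sex. IL-4 drives macrophages into an alternatively activated state called M2. The comparisons ask how the deletion, IL-4 and the 2 together alter the transcripts.

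Chemokines are small secreted proteins that guide leukocytes along a gradient through G protein-coupled receptors. Cxcl1, Cxcl2 and Cxcl3 carry the ELR motif and attract neutrophils through the receptor CXCR2. Cxcl9 and Cxcl10 are induced by interferons and attract activated T cells and NK cells through CXCR3. Cxcl16 and Cx3cl1 are made as membrane-bound proteins on a mucin stalk, act as adhesion molecules for cells with CXCR6 and CX3CR1, and become soluble chemokines when the proteases ADAM10 and ADAM17 cut them off. Pf4, also named CXCL4, is known best from platelet granules, and Cxcl14 is a chemokine that is made at a steady level by many epithelia. In activated macrophages the ELR genes are classical targets of NF-kB, and their messages carry AU-rich elements that make them short-lived.

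In the annotation of mouse genome GRCm38 (GENCODE M21), 6 of the 9 genes lie on chromosome 5. Pf4 (chr5:90772435-90773383), Cxcl3 (chr5:90786103-90789600), Cxcl1 (chr5:90891241-90893115) and Cxcl2 (chr5:90903871-90905938) follow each other on the plus strand. Cxcl9 (chr5:92321347-92328079) and Cxcl10 (chr5:92346638-92348889) lie further along on the minus strand. Cx3cl1 is at chr8:94772009-94782427 on the plus strand, Cxcl16 at chr11:70453983-70459984 and Cxcl14 at chr13:56288643-56296551, both on the minus strand. Cxcl10 lies over part of Art3 and Cxcl16 over part of Zmynd15, each on the other strand, and the strand setting of the counting is not given in the sources used here, so that reads of these pairs may not be separated.

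Promoters from RefSeq (GRCm38.p6), running from 250 bases before to 50 bases after the start, were found for 8 of the 9 genes, the exception being Cxcl16. The promoters of the 3 ELR genes are shown because they share a word, and that of Cxcl10 because it holds matches of NF-kB and interferon type together. The windows run from -110 to -21 for the ELR genes and from -220 to -91 for Cxcl10, where -1 is the base before the RefSeq start, and each is written 5′ to 3′ on the strand of the gene. Capitals mark the motif matches on either strand. The regions are chr5:90891135-90891224 for Cxcl1, chr5:90903789-90903878 for Cxcl2 and chr5:90785991-90786080 for Cxcl3, all on the plus strand, and chr5:92348980-92349109 on the minus strand for Cxcl10.
Cxcl1: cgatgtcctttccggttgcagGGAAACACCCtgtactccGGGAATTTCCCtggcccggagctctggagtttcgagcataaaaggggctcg
Cxcl2: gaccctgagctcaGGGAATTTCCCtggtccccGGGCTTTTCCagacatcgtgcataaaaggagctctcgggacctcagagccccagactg
Cxcl3: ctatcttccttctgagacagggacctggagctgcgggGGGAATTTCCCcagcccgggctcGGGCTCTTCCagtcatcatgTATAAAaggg
Cxcl10: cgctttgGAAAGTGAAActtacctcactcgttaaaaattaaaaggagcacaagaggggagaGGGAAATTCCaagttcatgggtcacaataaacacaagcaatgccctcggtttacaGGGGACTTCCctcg
The word GGGAATTTCC is in all 3 ELR promoters, beginning at -71 in Cxcl1, at -97 in Cxcl2 and at -73 in Cxcl3. It occurs on either strand in 24 of 27025 promoters (0.0888%). Matches of NF-kB type were searched as GGG and TTCC with 2 or 3 bases between them on both strands, and 9.68% of all promoters hold at least 1. Cxcl1, Cxcl2 and Cxcl3 each hold 1 more such match outside the shared word, and in all 3 a match on the other strand overlaps the word, shifted towards the start by 1 base. Cxcl9 holds matches at -130 and -42, and Cxcl10 at -159 and at -104, where the spacings of 2 and 3 bases overlap. The interferon response type, GAAA and GAAA with 2 bases between them, is in 3.49% of promoters, and of the 8 it is in those of Cxcl10 (-213) and Cxcl14 (-172). The STAT6 type, TTC and GAA with 4 bases between them, is in 6.99% of promoters and in 0 of the 8. TATAAA, found in 14.2% of promoters, begins at -30 in Cxcl3, at -195 in Cxcl9 and at -6 in Cx3cl1. None of these letters is in the window of Pf4. Such matches are descriptions of the sequence and do not show that a factor binds.

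**Figure D1:**
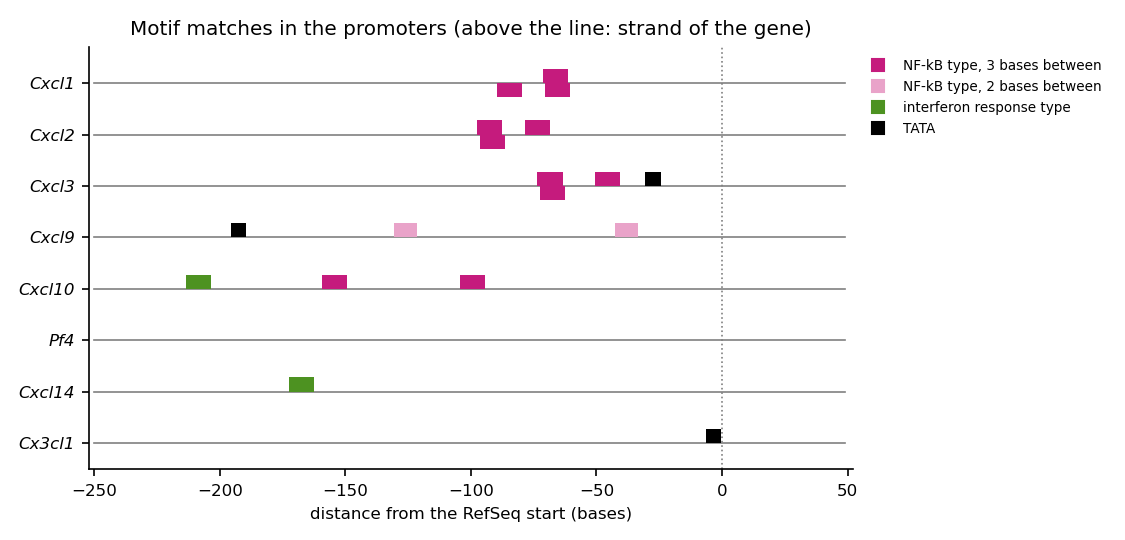
Motif matches in the promoters of 8 chemokine ligands, with the distance from the RefSeq start in bases on the horizontal axis and 1 line per gene. Blocks above a line are on the strand of the gene and blocks below it on the other strand, and the 3 ELR genes each have blocks of NF-kB type within 100 bases before the start.

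The deposited expected counts, in which reads that match several genes are divided among them, summed per library to 24942666 to 29832430 for WT M0, 20011792 to 22744704 for WT M2, 26568719 to 37054582 for KO M0 and 27347077 to 39632770 for KO M2. Counts of the whole Igf2bp2 gene were 76.5 to 118 CPM (counts scaled to the size of the library) in WT M0, 178 to 233 in WT M2, 84.9 to 95.9 in KO M0 and 129 to 146 in KO M2, and they include the exons that remain. Lyz2, which holds the Cre insertion, fell from at least 4185 CPM in every WT library to at most 33.2 CPM in every KO library, so that the loss of IGF2BP2 and the loss of Lyz2 cannot be told apart in any comparison of KO with WT. All 8 macrophage markers averaged 1 TPM or more in each group. The 9 neutrophil and precursor markers summed to 23.8 to 61.3 TPM in WT M0, 14.6 to 36.3 in WT M2, 17.9 to 19.2 in KO M0 and 14 to 19.4 in KO M2, with Ly6g at 0 throughout. The 7 stromal markers summed to 11.2 to 21.8 TPM in WT M0, 12.6 to 23.1 in WT M2, 3.54 to 12.9 in KO M0 and 3.27 to 11 in KO M2. In bulk RNA, fewer cells that express a gene and less RNA per cell cannot be told apart.

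Levels of different genes were compared in TPM, which corrects for transcript length. Pf4 had the highest level of the 9 in every library, and it made up 80.5 to 82.4% of their summed TPM in M0 and 89.9 to 94.1% in M2. In WT M0 the order by mean TPM was Pf4 (1327 ± 141, SD, n = 3), Cxcl16 (112 ± 7.47), Cxcl2 (108 ± 33.1), Cxcl14 (29.2 ± 3.54), Cxcl10 (27.7 ± 2.04), Cxcl3 (21.4 ± 6.74), Cxcl1 (6.72 ± 1.53), Cx3cl1 (4.75 ± 0.38) and Cxcl9 (0.0333 ± 0.0306). In this order Cxcl16 and Cxcl2, Cxcl14 and Cxcl10, Cxcl10 and Cxcl3, and Cxcl1 and Cx3cl1 had overlapping library ranges. In KO M0, Cxcl2 (135 ± 23.8) stood above Cxcl16 (113 ± 4.01) without overlap, and Cxcl3 and Cxcl10 were the only neighbours that overlapped. In WT M2, Pf4 (1167 ± 26.8) was followed by Cxcl16 (42.1 ± 10.2), Cxcl2 (30.4 ± 10.1), which overlapped, and by Cxcl14 (15.2 ± 4.26), and Cxcl3, Cxcl10, Cx3cl1 and Cxcl1 lay close together, from 5.69 down to 1.24 TPM, each overlapping the next. In KO M2, Pf4 (1480 ± 68.0), Cxcl16 (46.1 ± 2.31), Cxcl2 (36.1 ± 5.14), Cxcl14 (17.9 ± 3.12) and Cxcl3 (10.0 ± 1.85) were all apart from each other, and only Cx3cl1, Cxcl10 and Cxcl1 overlapped with a neighbour. Over the 4 groups, 21 of 32 neighbouring pairs had ranges that did not overlap.

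**Figure D2:**
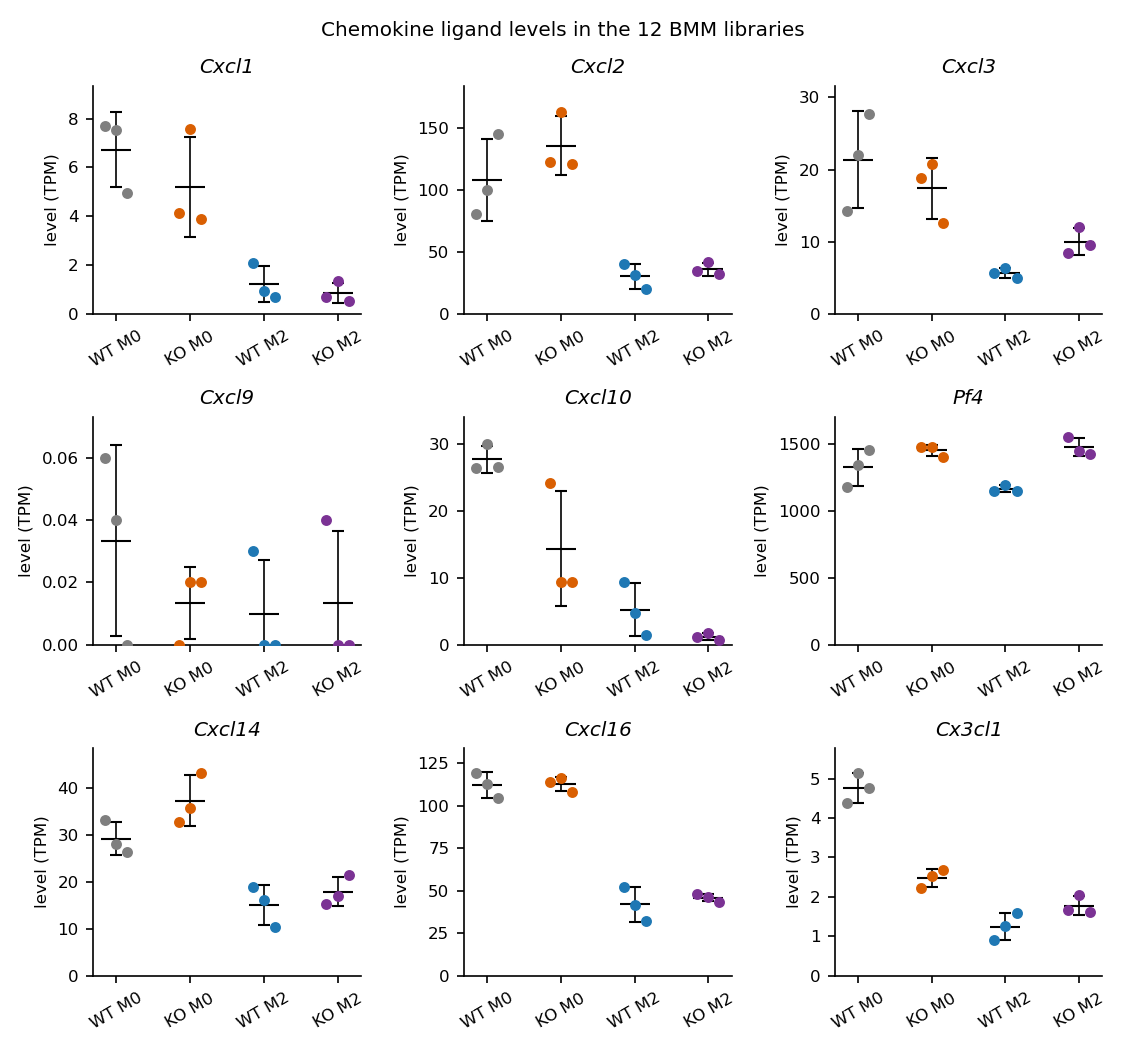
Level in TPM (vertical axis, from 0, with a scale of its own for each gene) of the 9 chemokine ligands in the 12 libraries. Points are libraries, the horizontal mark is the mean and the bar the SD of the 3 libraries of a group. Cxcl1, Cxcl2, Cxcl3, Cxcl10, Cxcl14, Cxcl16 and Cx3cl1 are lower in both M2 groups than in the M0 group of the same genotype, and Pf4 is not. The fall of Cx3cl1 in KO was not called by edgeR. Cx3cl1 is at 4.37 to 5.13 TPM in WT M0 and at 2.23 to 2.68 TPM in KO M0.

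IL-4 lowered most of these ligands. In WT macrophages 7 of the 8 ligands with enough counts for a test fell and 0 rose (edgeR adjusted p under 0.05), where 50.0% of all 12846 tested genes were called and 25.1% were lower. In KO macrophages 6 of 8 fell and 0 rose, where 52.8% of all genes were called and 26.0% were lower. The median log2 fold change of the 8 was -1.81 in WT and -1.15 in KO, and that of all genes -0.008 and 0.014. The genotype moved fewer of them. In M0, 1 of 8 was lower in KO and 0 were higher (9.78% of all genes were called), and in M2, 1 of 8 was higher and 0 were lower (2.68%). The medians of the 8 were -0.20 in M0 and 0.27 in M2, and those of all genes -0.001 in both. The KO and WT libraries did not overlap for 4 of 8 ligands in M0, against 31.1% of all genes, and for 3 of 8 in M2, against 24.8%. The response to IL-4 differed between KO and WT for 1 of 8 (3.24% of all genes). These comparisons share libraries and are not independent of each other. Cxcl9 did not pass the filter on low counts and is in none of these numbers.

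**Figure D3:**
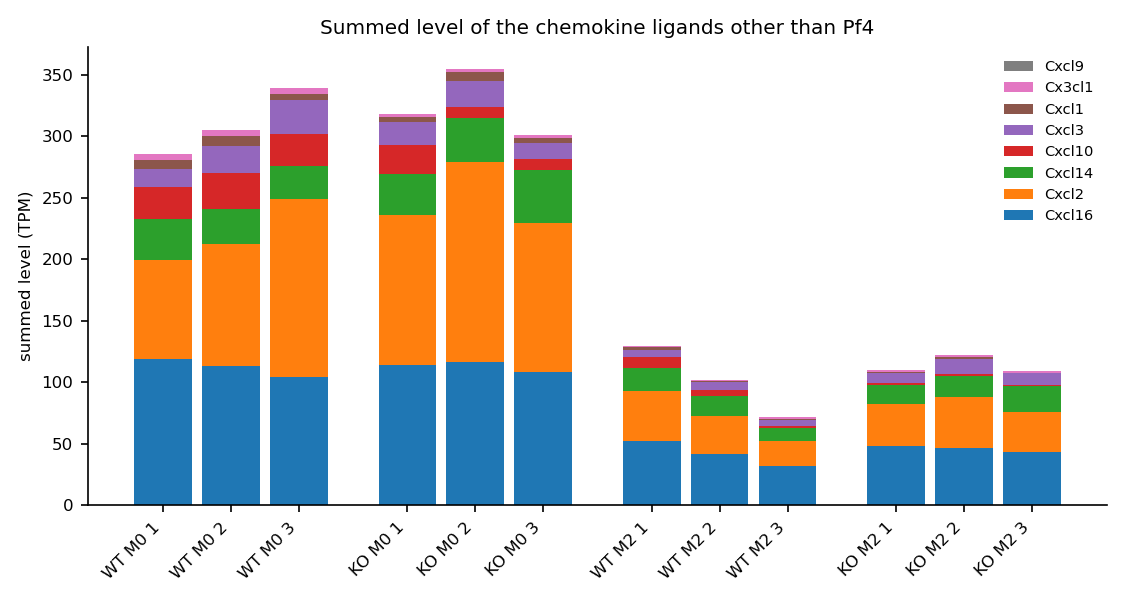
Summed level in TPM (vertical axis) of the 8 chemokine ligands other than Pf4 in each of the 12 libraries, with 1 colour per gene. The sum is 285.5 to 355 TPM in the M0 libraries and 71.4 to 129.6 TPM in the M2 libraries, and Cxcl16 and Cxcl2 make up most of it in each.

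Cxcl1 was the ELR ligand at the lowest level. Its values were 7.68, 7.53 and 4.95 TPM in WT M0, 4.13, 7.56 and 3.90 TPM in KO M0, 2.08, 0.92 and 0.71 TPM in WT M2, and 0.70, 1.34 and 0.53 TPM in KO M2. All 6 M0 libraries lay above all 6 M2 libraries, and WT and KO overlapped in both states. IL-4 lowered Cxcl1 by 2.34 on the log2 scale in WT (SE 0.42, edgeR adjusted p = 0.000441), which is 5.07-fold, and 5.66-fold in KO (edgeR adjusted p = 0.000198). The log2 fold change was -2.96 in WT without WT M2 library 1 and -1.71 in KO with limma on log2(TPM + 1), both still called. In M2 it rested on 7 to 26 counts per library. The genotype differences of -0.35 in M0 (95% interval -1.08 to 0.39) and -0.50 in M2 (-1.58 to 0.57) did not pass the test (edgeR adjusted p = 0.573 and 0.607), and the intervals leave room for changes in either direction.

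Cxcl2 was the most abundant of the 3 ELR ligands. It was at 80.2, 99.7 and 145 TPM in WT M0, at 122, 163 and 121 TPM in KO M0, at 40, 31.3 and 19.9 TPM in WT M2, and at 34.4, 41.8 and 32.0 TPM in KO M2. The lowest M0 library stood above the highest M2 library, and the genotypes overlapped in M0 and in M2. The fall with IL-4 was 3.41-fold in WT (log2 fold change -1.77, SE 0.26, edgeR adjusted p = 0.000102) and 3.55-fold in KO (-1.83, SE 0.25, edgeR adjusted p = 4.36e-05). Between the genotypes the log2 fold changes were 0.33 in M0 (95% interval -0.18 to 0.84, edgeR adjusted p = 0.418) and 0.27 in M2 (-0.31 to 0.85, edgeR adjusted p = 0.611). Cxcl2 took 75.8 to 87.9% of the summed TPM of the 3 ELR ligands in the 12 libraries.

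Cxcl3 fell with IL-4 in both genotypes, and the difference between the 2 falls did not pass the test. Its values were 14.3, 22.0 and 27.8 TPM in WT M0, 18.8, 20.8 and 12.7 TPM in KO M0, 5.74, 6.38 and 4.94 TPM in WT M2, and 8.41, 12.0 and 9.57 TPM in KO M2. The genotypes overlapped in M0, whereas in M2 every KO library lay above every WT library. With IL-4 it fell 3.59-fold in WT (log2 fold change -1.84, SE 0.27, edgeR adjusted p = 9.67e-05) and 1.64-fold in KO (-0.71, SE 0.24, edgeR adjusted p = 0.025). The call in KO was lost without KO M0 library 1 (edgeR adjusted p = 0.0675) or 2 (0.111) and without KO M2 library 1 (0.0799) or 3 (0.0752). The difference between the responses was 1.13 on the log2 scale (SE 0.36) with an edgeR adjusted p of 0.119, and with the library number within a genotype as a replicate block it was 1.1 with an adjusted p of 0.0429. Without 1 library the difference was 0.86 to 1.37, and 1 of these 12 fits, that without WT M0 library 1, passed the test (edgeR adjusted p = 0.0224, and 0.128 to 0.224 in the others). DESeq2 gave 1.12 (adjusted p = 0.0339) and limma 0.97 and 1.07 (adjusted p = 0.19 and 0.18). In M2 the KO level was 1.79-fold that of WT (log2 fold change 0.84, SE 0.28, edgeR adjusted p = 0.124, DESeq2 adjusted p = 0.0382), and none of the 6 fits without 1 library passed (edgeR adjusted p from 0.147 to 0.259).

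Reads were divided between Cxcl2 and Cxcl3, as their expected counts are not whole numbers, while those of Cxcl1 are. The TPM ratio of Cxcl2 to Cxcl3 was 4.53 to 5.6 in WT M0, 4.03 to 6.97 in WT M2, 6.5 to 9.54 in KO M0 and 3.34 to 4.09 in KO M2, so that it was apart between the genotypes in M0 and overlapped in M2. When the counts of both were summed, IL-4 lowered the pair 3.44-fold in WT (edgeR adjusted p = 7.03e-05) and 3.15-fold in KO (edgeR adjusted p = 7.39e-05). For the pair the difference between the responses was 0.13 (SE 0.34, edgeR adjusted p = 0.885).

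Cxcl9 was near the detection limit. The 12 libraries held 0 to 3 counts each, and a count of 0 allows up to 0.0757 to 0.15 CPM at these depths, for counting error only. Its TPM values were 0.06, 0.04 and 0 for WT M0, 0.03, 0 and 0 for WT M2, 0, 0.02 and 0.02 for KO M0, and 0.04, 0 and 0 for KO M2. No difference was detectable at this depth. Its neighbour Cxcl10, the other interferon-inducible ligand, was expressed in every library.

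Cxcl10 fell with IL-4 in both genotypes. It was at 26.4, 30.01 and 26.6 TPM in WT M0, at 24.2, 9.37 and 9.38 TPM in KO M0, at 9.42, 4.83 and 1.48 TPM in WT M2, and at 1.21, 1.85 and 0.69 TPM in KO M2. In KO M0 the first library stood apart from the others and near the WT level, and in M2 the third WT library lay within the KO range. IL-4 lowered Cxcl10 4.95-fold in WT (log2 fold change -2.31, SE 0.48, edgeR adjusted p = 0.00133) and 10.8-fold in KO (-3.43, SE 0.56, edgeR adjusted p = 0.000189). These responses differed by -1.12 on the log2 scale (95% interval -2.76 to 0.51, edgeR adjusted p = 0.474). Without WT M2 library 1 the WT response was -3.06 and the difference -0.37, and with limma on log2(TPM + 1) the KO response was -2.66 and the difference -0.24, with both responses still called and the difference not. The difference was -0.55 without KO M0 library 1.

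The genotype differences of Cxcl10 did not pass the edgeR test. In M0 the log2 fold change of KO against WT was -0.96 (SE 0.42, edgeR adjusted p = 0.175), and it was -1.53 without KO M0 library 1 (edgeR adjusted p = 0.0529) and -0.73 without KO M0 library 2 or 3 (edgeR adjusted p = 0.433 and 0.42). In M2 it was -2.08 (SE 0.62, edgeR adjusted p = 0.094), a ratio of 4.24. Without 1 library the M2 value ran from -1.33 without WT M2 library 1 (edgeR adjusted p = 0.337) to -2.52 without WT M2 library 3 (edgeR adjusted p = 0.0388). It passed with DESeq2 (adjusted p = 0.0326) and with no filter on low counts (edgeR adjusted p = 0.0364), and not with limma (-1.27 and -1.73, adjusted p = 0.19 and 0.156). Of the sums of markers given above, that of neutrophils was apart between the genotypes in M0 and overlapped in M2, and that of stromal cells overlapped in M0 and was apart in M2, in both cases with KO the lower. Their part in the Cxcl10 values was not tested.

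Cx3cl1 was the ligand whose level and response depended on the genotype. Its values were 4.37, 5.13 and 4.76 TPM in WT M0, 2.23, 2.54 and 2.68 TPM in KO M0, 0.90, 1.26 and 1.59 TPM in WT M2, and 1.68, 2.05 and 1.62 TPM in KO M2. Each M0 WT library lay well above each M0 KO library, and in M2 the order of the genotypes was turned round, with every KO library above every WT library. On the CPM scale, WT M0 had 7.60 to 9.07, KO M0 3.97 to 4.59, WT M2 1.68 to 2.96 and KO M2 3.04 to 3.8 CPM, from 37 to 276 counts per library. In M0 the KO level was 1.98-fold lower (log2 fold change -0.98, SE 0.16, edgeR adjusted p = 0.00276). The M0 call remained in all 6 fits without 1 library. In M2 the KO value was 1.46-fold that of WT and did not pass the test (log2 fold change 0.54, SE 0.18, edgeR adjusted p = 0.124).

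IL-4 lowered Cx3cl1 3.66-fold in WT (log2 fold change -1.87, SE 0.17, edgeR adjusted p = 1.72e-06). In KO the fall of 1.27-fold missed the threshold (-0.34, SE 0.16, edgeR adjusted p = 0.095), and with the library number within a genotype as a replicate block it was -0.35 with an adjusted p of 0.0356. It also passed in the 6 KO libraries alone (-0.35, edgeR adjusted p = 0.0485) and with limma at a pseudocount of 1 (-0.32, adjusted p = 0.0434), and not in the fits without 1 library (-0.27 to -0.44, edgeR adjusted p from 0.0699 to 0.266). The KO response minus the WT response was 1.53 on the log2 scale (SE 0.24, 95% interval 1.01 to 2.04, edgeR adjusted p = 0.00646), and this call remained in all 12 fits without 1 library. Endothelial cells are a known source of Cx3cl1, and their 4 markers summed to 3.99 to 4.13 TPM in WT M0, 25.3 to 28.6 in WT M2, 3.75 to 4.26 in KO M0 and 20.6 to 23.2 in KO M2. Most of the M2 sum was Pecam1, at 23.4 to 26.8 TPM in WT M2 and 0.75 to 1.22 TPM in WT M0. Kdr was at 1.99 to 2.54 TPM in WT M0 and 1.15 to 1.43 in WT M2. In KO, Kdr was at 2.49 to 2.82 TPM in M0 and 1.09 to 1.9 in M2. Cdh5 was at 0.67 to 0.91 TPM in WT M0 and 0.23 to 0.42 in WT M2. In KO, Cdh5 was at 0.58 to 0.79 TPM in M0 and 0.19 to 0.25 in M2. Kdr and Cdh5 were thus lower in M2 in each genotype, opposite to Pecam1, and Tek was at no more than 0.03 TPM. The part of these markers in the Cx3cl1 values was not tested.

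**Figure D4:**
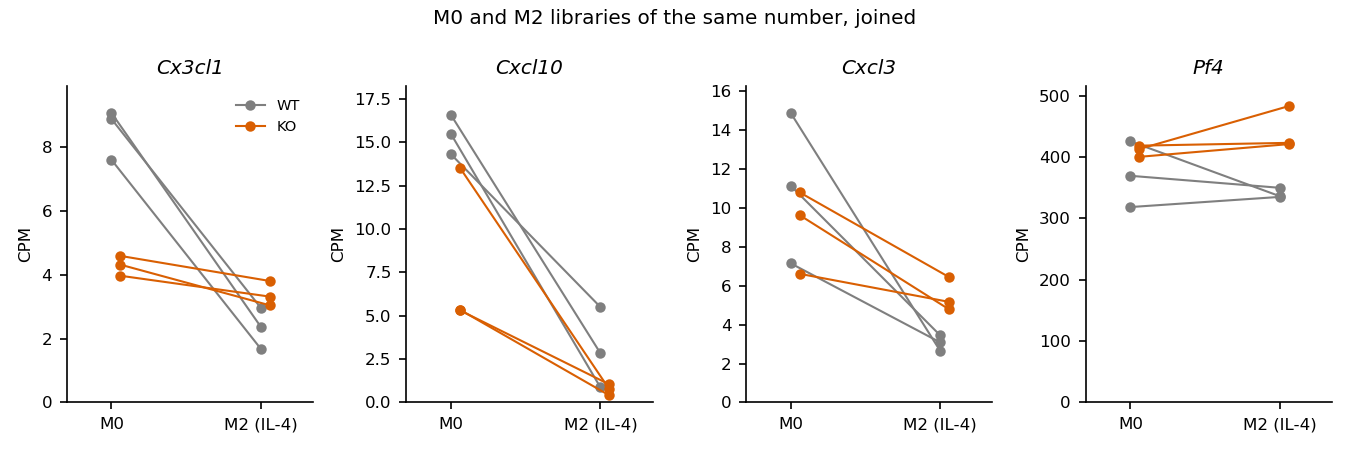
CPM (vertical axis, from 0) of Cx3cl1, Cxcl10, Cxcl3 and Pf4 in M0 and M2 libraries, with libraries of the same genotype and number joined by a line (grey WT, orange KO). For Cx3cl1 the WT lines start at 7.60 to 9.07 CPM and end below the KO lines, which start at 3.97 to 4.59 CPM.

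Cxcl16, the other membrane-bound ligand, had the highest mean TPM after Pf4 in 3 of the 4 groups, overlapping with Cxcl2 in WT M0 and WT M2. It was at 119, 113 and 104 TPM in WT M0, at 114, 116 and 108 TPM in KO M0, at 52.6, 41.4 and 32.3 TPM in WT M2, and at 48.3, 46.3 and 43.7 TPM in KO M2. The genotypes overlapped in both states, and each M2 library lay below each M0 library. With IL-4 it fell 2.92-fold in WT (log2 fold change -1.54, SE 0.14, edgeR adjusted p = 1.06e-06) and 2.5-fold in KO (-1.32, SE 0.13, edgeR adjusted p = 2.86e-06). Between KO and WT in M0 the log2 fold change was -0.11 in counts (95% interval -0.39 to 0.17, edgeR adjusted p = 0.648) and 0.01 in limma on log2(TPM + 1) (adjusted p = 0.982), so that its sign depended on the unit. CPM of the genotypes did not overlap in M0, at 106 to 117 in WT and 100.2 to 104.7 in KO.

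The effective length that the authors' quantification gave Cxcl16, by which counts are divided to give TPM, also moved between the groups. This length is a mean over the transcripts of a gene, weighted by their abundance. It was 1787 ± 31.1 nucleotides in WT M0 (SD, n = 3), 1554 ± 41.7 in WT M2, 1643 ± 29.4 in KO M0 and 1518 ± 5.12 in KO M2. The M0 libraries of WT and KO were apart, as were M0 and M2 within each genotype, with an exact permutation p of 0.1 in each case, the smallest that 3 against 3 libraries can give. WT M2 and KO M2 had an exact permutation p of 0.4. Which transcripts account for the lengths was not analysed here.

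Cxcl14 fell with IL-4 in both genotypes. It was at 33.2, 28.04 and 26.4 TPM in WT M0, at 32.8, 35.7 and 43.3 TPM in KO M0, at 18.9, 16.2 and 10.5 TPM in WT M2, and at 15.3, 17.1 and 21.4 TPM in KO M2. Both M2 groups lay below the M0 groups, and in TPM the genotypes overlapped. IL-4 lowered it 1.83-fold in WT (log2 fold change -0.88, SE 0.18, edgeR adjusted p = 0.00136) and 1.97-fold in KO (-0.98, SE 0.17, edgeR adjusted p = 0.000339). In M0 the KO value was 1.29-fold that of WT (log2 fold change 0.37, SE 0.17, edgeR adjusted p = 0.194), and in M2 1.2-fold (0.26, SE 0.18, edgeR adjusted p = 0.446).

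Pf4 was not called in the response to IL-4 of either genotype by edgeR. Its values were 1179, 1344 and 1459 TPM in WT M0, 1481, 1479 and 1408 TPM in KO M0, 1154, 1198 and 1149 TPM in WT M2, and 1558, 1452 and 1430 TPM in KO M2. WT M0 had the widest spread of the 4 groups, and in M2 the KO libraries lay above the WT libraries. The log2 fold change with IL-4 was -0.12 in WT (95% interval -0.31 to 0.06, edgeR adjusted p = 0.255) and 0.11 in KO (-0.08 to 0.29, edgeR adjusted p = 0.321). The change in WT depended on the M0 libraries, and was -0.22 without WT M0 library 1 (edgeR adjusted p = 0.0222) and -0.02 without WT M0 library 3 (edgeR adjusted p = 0.872). With limma on TPM it was -0.18 and passed the test (adjusted p = 0.0443 at a pseudocount of 1 and 0.0436 at 0.1).

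In M2, Pf4 was 1.3-fold higher in KO (log2 fold change 0.38, SE 0.09, edgeR adjusted p = 0.0414). This call did not hold in any of the 6 fits without 1 library (edgeR adjusted p from 0.0764 to 0.124), while the fold change stayed between 0.31 and 0.41 on the log2 scale. In M0 the log2 fold change was 0.15 (SE 0.09, edgeR adjusted p = 0.315), and it was 0.26 without WT M0 library 3 (edgeR adjusted p = 0.0372) and 0.05 without WT M0 library 1 (edgeR adjusted p = 0.724). Pf4 is a platelet gene, so the 7 megakaryocyte and platelet markers were read beside it. Gp9 was at 0 in every library, Gp1ba and Gp1bb at no more than 0.05 and 0.21 TPM, and Itga2b at no more than 1.03 TPM. Treml1 was at 2.89 to 3.56 TPM in WT M0, 3.64 to 4.65 in WT M2, 2.91 to 3.94 in KO M0 and 4.16 to 5.39 in KO M2, so that the genotypes overlapped in both states. The sum of the 7 was 11.2 to 16.2 TPM in WT M0, 12.9 to 19.3 in WT M2, 15.9 to 20.5 in KO M0 and 22.6 to 25.9 in KO M2, most of it from Ppbp. In this sum the genotypes overlapped in M0 and were apart in M2, with KO the higher. Ppbp alone likewise overlapped in M0 and was apart in M2, at 8.92 to 14.5 TPM in WT and 17.7 to 19.8 in KO. The part of these markers in the Pf4 values was not tested.

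**Figure D5:**
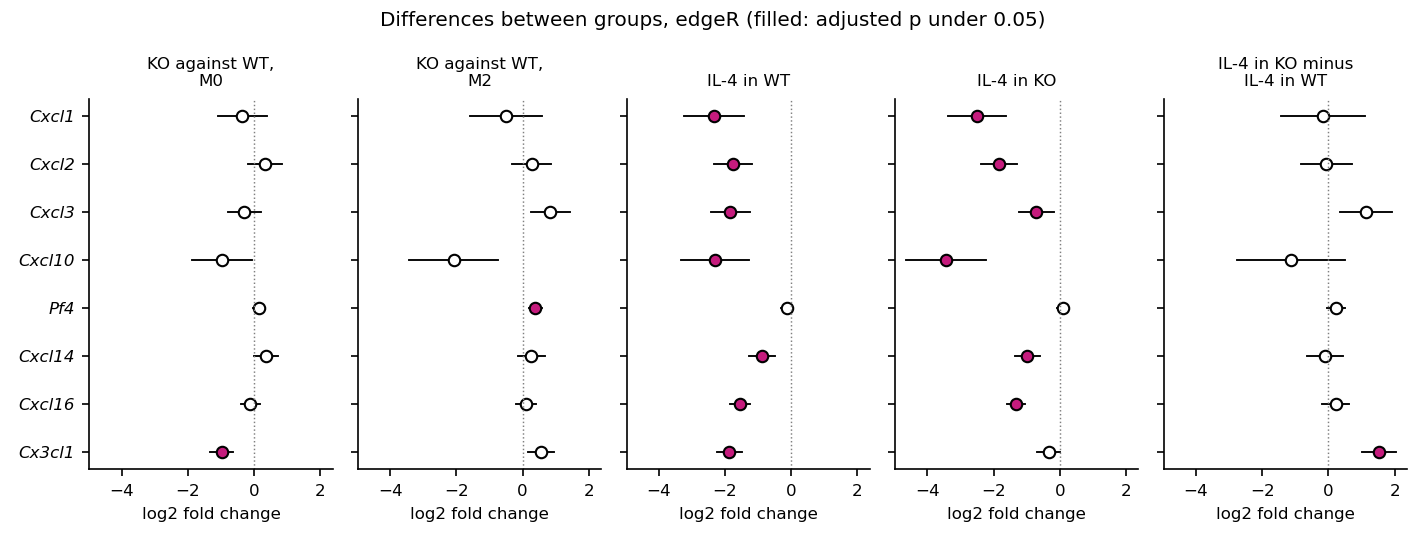
Log2 fold change (horizontal axis) of the 8 tested chemokine ligands in KO against WT, in the response to IL-4 and in the difference between the responses. Circles are edgeR estimates, lines are 95% intervals and filled circles have an adjusted p under 0.05. In the difference between the responses, Cx3cl1 at 1.53 is the filled circle, and in KO against WT they are Cx3cl1 in M0 and Pf4 in M2.

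Of 7 further CXC ligands, 3 had enough counts for a test, with edgeR adjusted p from 0.0513 to 0.808 over the 5 comparisons. Ppbp, which lies with Pf4 in the platelet, had a mean of 5.77 CPM in WT M0, 6.61 in WT M2, 8.07 in KO M0 and 11.1 in KO M2 (KO against WT in M2: log2 fold change 0.75, edgeR adjusted p = 0.101). Cxcl11, a CXCR3 ligand like Cxcl9 and Cxcl10, averaged 0.512 CPM in WT M0 and 0.109 CPM in KO M0 (log2 fold change -2.21, edgeR adjusted p = 0.0513). Cxcl12, a ligand of CXCR4, was at 1.25 and 0.568 CPM in these groups (log2 fold change -1.13, edgeR adjusted p = 0.204). Cxcl13, Cxcl15 and Cxcl17 were at 0 in all libraries.

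Of 9 receptors and scavengers of these ligands 5 were tested, of which 2 rose and 3 fell with IL-4 in each genotype, where 50.0% of all genes were called in WT and 52.8% in KO. Cx3cr1, the receptor for Cx3cl1, fell from 72.4 to 0.699 CPM in WT (log2 fold change -6.70, edgeR adjusted p = 1.3e-10) and from 64.3 to 0.833 CPM in KO (-6.28, edgeR adjusted p = 7.99e-11). Cxcr2, the receptor for the ELR ligands, rose from 0.0674 to 0.600 CPM in WT (log2 fold change 3.04, edgeR adjusted p = 0.000218), so it remained near the detection limit. Cxcr6, the receptor for Cxcl16, was at no more than 0.07 TPM. Between the genotypes 1 of the 5 was called in M0 and 0 in M2 by edgeR (9.78% and 2.68% of all genes). This was Ccr1, which is reported to bind CXCL4. In M0 it averaged 35.9 CPM in WT and 74.7 CPM in KO (log2 fold change 1.06, SE 0.12, edgeR adjusted p = 0.000402), in M2 113 and 115 CPM (0.02, edgeR adjusted p = 0.939), and the KO response to IL-4 was smaller by 1.04 on the log2 scale (edgeR adjusted p = 0.00755).

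Transcripts of the shedding machinery were present in every group. Of 5 genes, 2 rose and 1 fell with IL-4 in WT, 3 rose and 1 fell in KO (50.0% and 52.8% of all genes were called), and 0 were called between the genotypes by edgeR (9.78% in M0 and 2.68% in M2). Adam10 rose from 276 to 417 CPM in WT (log2 fold change 0.60, edgeR adjusted p = 1.63e-05) and from 290 to 395 CPM in KO (0.44, edgeR adjusted p = 0.000174). Adam17 fell from 370 to 271 CPM in WT (log2 fold change -0.45, edgeR adjusted p = 1.01e-06) and from 382 to 251 CPM in KO (-0.61, edgeR adjusted p = 5.36e-08). Rhbdf2, a partner that brings ADAM17 to the cell surface, rose from 62.4 to 106 CPM in WT (log2 fold change 0.77, edgeR adjusted p = 1.77e-07) and to 120 CPM in KO (0.94, edgeR adjusted p = 2.12e-08).

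Of 16 genes of the NF-kB pathway and its feedback, all tested, KO M0 had 10 lower, 0 higher and 6 not called, where 4.27% of all genes were lower. Their median log2 fold change was -0.29, against -0.001 for all genes. KO M2 had 3 higher and 0 lower, where 1.21% of all genes were higher. Nfkb2, a subunit of the non-canonical pathway, was at 175 CPM in WT M0 and 104 CPM in KO M0 (log2 fold change -0.76, SE 0.07, edgeR adjusted p = 0.000151). Traf1, an adaptor of TNF receptors, had means of 46.2 and 31.5 CPM (-0.55, SE 0.09, edgeR adjusted p = 0.00349). The other 8 genes lower in KO M0 were Relb, Tnfaip3, Tnip1, Nfkbia, Nfkbie, Nfkb1, Nfkbib and Bcl3, and those higher in KO M2 were Tnip1, Traf1 and Nfkbib. With IL-4, 10 fell and 3 rose in WT, and 8 fell and 3 rose in KO (50.0% and 52.8% of all genes were called), and in WT the largest changes were those of Nfkbiz (16.2 to 1.45 CPM, log2 fold change -3.47, edgeR adjusted p = 2.83e-09) and Traf1 (46.2 to 7.72 CPM, log2 fold change -2.58, edgeR adjusted p = 9.07e-10). The response differed between KO and WT for 9 of 16, namely those lower in KO M0 without Bcl3, all towards a higher value in KO (1.11% of all genes). The 3 ELR ligands, with the matches of NF-kB type shown above, were not called in KO M0. Their log2 fold changes were -0.35 for Cxcl1 (95% interval -1.08 to 0.39), 0.33 for Cxcl2 (-0.18 to 0.84) and -0.29 for Cxcl3 (-0.80 to 0.22). These intervals leave room for changes in either direction, and a link of the ligands to the NF-kB genes was not tested.

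Of 20 inflammatory genes that NF-kB induces 14 were tested, of which KO M0 had 4 lower and 1 higher and KO M2 had 0 called by edgeR, where 9.78% and 2.68% of all genes were called. Tnf fell from 124 to 77.2 CPM (log2 fold change -0.68, edgeR adjusted p = 0.000595), Icam1 from 192 to 111 CPM (-0.78, edgeR adjusted p = 9.71e-05), Ptgs2 from 11.4 to 6.3 CPM and Il1b from 4.51 to 1.80 CPM, while the chemokine Ccl7 rose from 238 to 358 CPM (0.59, edgeR adjusted p = 0.0326). With IL-4, 7 fell and 4 rose in WT, and 5 fell and 4 rose in KO (50.0% and 52.8% of all genes were called). In WT, Tnf fell to 24.6 CPM (log2 fold change -2.33, edgeR adjusted p = 5.48e-10), and Ccl7, which attracts monocytes, rose to 1771 CPM (2.90, edgeR adjusted p = 1.75e-08). The response differed for 3 of 14, Tnf, Ptgs2 and Icam1, all towards a higher value in KO (1.11% of all genes).

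Of 20 interferon-inducible genes 19 were tested. In KO M0, 4 were higher, among them Irf9, Stat2 and Gbp2, and 1 was lower (Irf1), where 5.5% and 4.27% of all genes were called in these directions, and in KO M2 0 were called by edgeR (2.68%). The log2 fold changes of Irf9, Stat2 and Gbp2 lay between 0.24 and 0.46, that of Irf1 was -0.27 and the median of the 19 was 0.31. The value of Cxcl10 in M0 was -0.96 and was not called (edgeR adjusted p = 0.175). A link of Cxcl10 to these genes was not tested. With IL-4, 10 fell and 7 rose in WT, and 12 fell and 6 rose in KO, where 50.0% and 52.8% of all genes were called. Ifit3 fell from 7.96 to 2.04 CPM in WT (log2 fold change -1.95, edgeR adjusted p = 0.000408) and from 9.93 to 1.1 CPM in KO (-3.20, edgeR adjusted p = 6.19e-06), and Socs1, a feedback inhibitor that IL-4 itself induces, rose from 2.11 to 73.5 CPM in WT. The response differed for 2 of 19, Irf9 and Stat2, both towards a lower value in KO (2.13% of all genes).

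The AU-rich pentamer ATTTA was counted in the longest annotated 3′UTR of each ligand, as a feature of the RNA that the choice of genes did not use. There were 7 copies in Cxcl1, 11 in Cxcl2 and 5 in Cxcl3, which is 11.8, 7.36 and 7.75 per kb, where the median of 21037 genes was 1.24. The 3′UTR counted for Cxcl2 has 1494 bases, more than the effective length of 969 to 975 nucleotides that the quantification gave this gene. Its copies may therefore not all lie in the transcript that was quantified. The 1 copy in the 123 bases of Pf4 came to 8.13 per kb. Cxcl10 had 3.01, Cxcl16 1.41, Cxcl9 1.22 and Cx3cl1 0.534 per kb, and Cxcl14 had 0 copies. Of 12 genes for proteins that bind such RNA or related elements 11 were tested, of which KO M0 had 3 higher and 3 lower (9.78% of all genes were called), and KO M2 had 2 lower (2.68%). Zfp36, which encodes the decay factor tristetraprolin, was at 142 CPM in WT M0 and 105 CPM in KO M0 (log2 fold change -0.44, edgeR adjusted p = 0.00393) and rose with IL-4 to 223 CPM in WT and 213 CPM in KO. Zc3h12a, which encodes the endonuclease Regnase-1, was also lower in KO M0 (log2 fold change -0.36, edgeR adjusted p = 0.0031), whereas Zfp36l1 was higher (0.53, edgeR adjusted p = 0.00462). Khsrp and Zfp36l2 were higher in KO M0 too, by 0.17 and 0.22 on the log2 scale. With IL-4 the largest changes in WT were those of Zfp36l1 (20.9 to 206 CPM, log2 fold change 3.30, edgeR adjusted p = 3.38e-11) and Zc3h12a (39 to 94.7 CPM, 1.28, edgeR adjusted p = 1.93e-09), and their responses differed between KO and WT by -0.77 and 0.43 (edgeR adjusted p = 0.00755 and 0.0151). Igf2bp3, a paralog of the deleted gene, fell from 16.2 to 3.66 CPM in KO M0 and from 19.3 to 4.81 CPM in KO M2 (edgeR adjusted p = 1.18e-05 and 2.13e-05). The other gene lower in KO M2 was Igf2bp2 itself (log2 fold change -0.65, edgeR adjusted p = 0.0285).

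As a check of the treatment, 14 of 14 tested IL-4 response genes rose in WT and 14 of 14 in KO (medians of 4.19 and 4.53 on the log2 scale), where 24.9% and 26.8% of all genes were higher. Mrc1, the mannose receptor, and Cd83 were lower in KO M0 (log2 fold changes -0.86 and -1.06, edgeR adjusted p = 0.000522 and 0.00241), and their responses were larger in KO by 0.69 and 1.21 (edgeR adjusted p = 0.0233 and 0.00955). After IL-4, neither was called between KO and WT (log2 fold changes -0.16 and 0.15, edgeR adjusted p = 0.384 and 0.542).

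For each ligand, the genes whose log2 CPM followed it most closely over the 12 libraries were taken as a description, leaving out genes that averaged under 5 CPM. The libraries share their groups, so that much of such a correlation is the common response to IL-4, and r was also computed after removing the 4 group means. For Cxcl16 the closest were Smox (Pearson's r = 0.990, and 0.89 within groups), Rasa4 and Pcgf2. For Cxcl10 they included the interferon-inducible Rsad2 (0.970, 0.90) and A530064D06Rik. Cxcl1 was followed by Mmp14 (0.972, 0.94), Dnajb4 and Abcc1, Cxcl2 by Ccni, Akt1 and Sod2 (0.972, 0.70), and Cxcl3 by Acod1 (0.959, 0.80), Tnfaip2 and Pld2. Acod1, the itaconate-producing enzyme, had means of 163 CPM in WT M0 and in KO M0, 25.4 CPM in WT M2 and 65.3 CPM in KO M2. The genes nearest to Cx3cl1 were Ezr (0.966, 0.67), Orai2 and Cnot8, and Ezr had 166, 112, 67.4 and 80.4 CPM in WT M0, KO M0, WT M2 and KO M2. Cxcl14 was nearest to Slamf9 (0.971, 0.84), Lpar6 and Letm1, and Pf4 to Timm8b (0.943, 0.97), Rtca and Arhgdia. Among the ligands themselves, Cxcl1 and Cxcl16 (0.95) and Cxcl2 and Cxcl16 (0.94) were the pairs with the highest r over the 12 libraries, and within groups these fell to 0.66 and 0.54. Within groups the highest r was that of Cxcl10 and Cxcl16 (0.80, and 0.86 over the 12 libraries), while Cxcl16 and Cx3cl1 turned from 0.75 to -0.84. Cxcl2 and Cxcl3, which share reads, had 0.89 and 0.74.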

How the data were processed

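RNA-Seq libraries (single reads of poly(A) RNA, directional kit) from 12 BMM cultures were analysed from the processed tables, and groups were taken from the sample labels. Each deposited table holds 1 library, with expected counts (estimated reads per gene), TPM (maximum-likelihood and posterior mean versions) and effective lengths in nucleotides, all as the authors made them. The authors checked reads with FastQC 0.11.2 and ran the Grape-nf pipeline on GRCm38, and the submitters' processing notes also name DESeq2 1.40.2. The aligner, the annotation release and the strand setting inside the pipeline are not given in the sources used here. The deposited comparison tables hold the authors' normalized counts, log2 fold changes, p-values and test statistics, of which only gene symbols were read. Symbols were found there for 21000 genes and in GENCODE M21 for 16570.

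Expected counts were rounded and fitted with edgeR 4.0.16 (TMM, filterByExpr, quasi-likelihood F test, 12846 genes, all 12 libraries in 1 fit with a coefficient for each group) in R 4.3.3. P-values were adjusted over all genes by Benjamini-Hochberg, with a threshold of 0.05. Other steps used Python 3.11.15, pandas 2.3.3 and scipy 1.17.1. The script was tested on simulated counts. CPM are counts scaled to the library size after TMM. Intervals and floors (3 counts) cover counting error or the spread between cultures of 3 mice.

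Libraries of the same genotype and number deviated together in M0 and M2 (correlations 0.331, 0.103 and 0.364 in WT, 0.166, 0.16 and 0.209 in KO), and the library number within a genotype was used as a replicate block in an alternative. The labels do not state this pairing. The number did not pair WT with KO (-0.068 to 0.04). No libraries were duplicates.

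Alternatives were DESeq2 1.42.0, RLE factors, 2 other filters, limma 3.58.1 with trend on log2(TPM + 1) or log2(TPM + 0.1), the 6 libraries of a comparison alone, the replicate blocks and leaving out each library. Summing Cxcl2 and Cxcl3 was chosen after seeing the data. The ligands and the gene lists were chosen with earlier results of these data known. All ligands are named, and of each list its genes called between genotypes, in some cases without values, and those with large IL-4 responses. The endothelial markers were at no more than 28.6 TPM in sum, with Pecam1 the main part, the dendritic at no more than 1.15 TPM and the lymphoid at no more than 0.09 TPM. Protein sequences were not analysed here, and a few genes and 1 motif of the lists are not reported here.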

Additional observations from a re-analysis of the deposited data

Results flagged for a closer look

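IL-4 changed Cx3cl1 differently in KO and WT, by 1.53 on the log2 scale (SE 0.24, edgeR adjusted p = 0.00646), as a direct test of the difference. The WT libraries went from 7.60 to 9.07 CPM in M0 to 1.68 to 2.96 CPM in M2, and the KO libraries went from 3.97 to 4.59 CPM to 3.04 to 3.8 CPM. Under all alternatives, those without 1 library included, it lay between 1.04 and 1.73, with adjusted p from 1.64e-06 to 0.0361. Lyz2 was lost in every KO library, and its part in this difference cannot be told apart from that of Igf2bp2.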

How the results depend on the processing

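Of 605 values of single ligands under an alternative or without 1 library, 564 kept their direction and their side of the threshold, 12 lost a call, 14 gained one and 15 changed sign. None of those that changed sign was called. Cxcl16 in M0 was 0.01 with limma at either pseudocount, and in M2 -0.06 to 0.33 without 1 library, below 0 without WT M2 library 3. Cxcl1 in M2 was -0.99 to 0.12 without 1 library, above 0 without WT M2 library 1. The difference between the responses of Cxcl1 was 0.10 with limma on log2(TPM + 1) and -0.65 to 0.46 without 1 library, that of Cxcl2 -0.37 to 0.19 without 1 library and 0.13 with Cxcl3 summed, and that of Cxcl14 -0.30 to 0.09 without 1 library.

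In M0, the number of genes called was 1256, 752 and 700 with limma at pseudocounts of 1 and 0.1, and 461 to 1461 without 1 library. In M2 it was 344, 717 with DESeq2, 70 and 57 with limma, 165 with the 6 libraries alone, and 25 to 298 without 1 library, lowest without KO M2 library 3. For the difference between the responses it was 416, 825 with DESeq2, 113 with limma at either pseudocount, 1003 with the number within a genotype as a replicate block, and 183 to 643 without 1 library. Ligands called in M0 were 1 to 2 without 1 library. In M2 they were 3 with DESeq2, 2 with no filter, 0 with limma at a pseudocount of 0.1, 0 with the library number, which did not pair WT with KO, as a replicate block, and 0 to 1 without 1 library. For the difference they were 2 with DESeq2 or with the number within a genotype as a replicate block, and 1 to 2 without 1 library. IL-4 called 7 to 8 ligands in WT and 5 to 6 in KO without 1 library. The blocks changed no other number of calls by over 1.5 times, and beside Cx3cl1, Cxcl3 and Pf4 they changed no call of a ligand. In the order by TPM, 21 to 24 pairs did not overlap without 1 library, and 22 in the posterior mean TPM. The causes of these shifts were not tested. Cxcl1 in M2 and Cxcl9 are limited by depth.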
